A study of Homo sapiens with 6 samples.

Results

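Thymidine glycol (Tg) sites at least 1000 bp wide were examined in HEK293T cells, a line of human embryonic kidney origin expressing SV40 large T antigen. The authors deposited 1 list of sites for wild-type cells and 1 for cells with both NTHL1 and NEIL1 disrupted (NTHL1-/-,NEIL1-/-, the double knockout). Sites were kept when they lay on chromosomes 1 to 22 and their end minus their start came to 1000 bp or more. This gave 158 broad sites among the 3472 wild-type sites on these chromosomes (4.55%, exact binomial 95% interval 3.88% to 5.30%) and 522 among the 8810 double-knockout sites (5.93%, 5.44% to 6.44%), 680 of the 13061 sites of both lists in all. Each list bears the genotype name of 2 libraries made by DPC-Seq, in which added NTHL1 protein is tied covalently to fragmented genomic DNA where it removes the damaged base. An input library of each genotype completes the 6 samples. The labels give no treatment of the cells. How the genes were disrupted, and whether the knockout line is 1 clone, is not given in the sources used here.

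Tg forms when thymine loses its double bond to an oxidising species, and it blocks many DNA polymerases. NTHL1 and NEIL1 are glycosylases that remove it and open base excision repair. A peak caller reports a site from the first to the last base at which reads exceed a local background, so a lesion at 1 place gives a site about as wide as the DNA fragments, and a wider site needs reads spread over more of the genome. Neighbouring stretches can also be joined into 1 site. The smallest gap left between neighbouring sites was 102 bp in each list, so a broad site may hold several enriched stretches lying closer than that.

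The sequence under a broad site could be read at 8 places, where one met a window of RefSeq's promoter table (GRCh38.p14, whose main chromosomes have hg38 coordinates; 250 bases before to 50 after a gene's start). The 4 shown here were picked after they had been read, because they let the reader see the DNA under broad sites. Capitals mark the bases inside the broad site, and each is written in the direction of its gene.
LOC105369535: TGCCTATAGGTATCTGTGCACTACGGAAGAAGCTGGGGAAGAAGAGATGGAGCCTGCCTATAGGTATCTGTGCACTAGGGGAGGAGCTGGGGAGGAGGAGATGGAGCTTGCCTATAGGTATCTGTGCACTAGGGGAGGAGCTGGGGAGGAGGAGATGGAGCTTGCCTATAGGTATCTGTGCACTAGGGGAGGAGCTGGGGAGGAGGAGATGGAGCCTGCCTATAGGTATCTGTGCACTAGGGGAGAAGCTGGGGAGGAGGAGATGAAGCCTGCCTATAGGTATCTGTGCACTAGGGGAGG
LOC124901809: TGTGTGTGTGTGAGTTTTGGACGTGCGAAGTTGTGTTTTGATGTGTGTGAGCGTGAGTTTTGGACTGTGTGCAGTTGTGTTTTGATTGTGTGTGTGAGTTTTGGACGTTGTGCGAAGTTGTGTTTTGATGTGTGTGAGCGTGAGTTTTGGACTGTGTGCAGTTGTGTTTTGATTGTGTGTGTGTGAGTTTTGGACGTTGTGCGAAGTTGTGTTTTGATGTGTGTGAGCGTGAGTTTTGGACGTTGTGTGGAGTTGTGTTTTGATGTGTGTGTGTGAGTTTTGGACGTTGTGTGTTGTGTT
CALY: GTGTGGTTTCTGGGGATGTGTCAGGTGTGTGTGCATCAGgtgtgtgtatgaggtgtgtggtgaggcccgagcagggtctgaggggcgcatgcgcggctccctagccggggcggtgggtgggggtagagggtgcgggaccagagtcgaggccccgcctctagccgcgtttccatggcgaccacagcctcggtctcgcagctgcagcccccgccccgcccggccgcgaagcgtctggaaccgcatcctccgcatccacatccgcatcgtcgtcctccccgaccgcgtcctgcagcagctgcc
LINC02251: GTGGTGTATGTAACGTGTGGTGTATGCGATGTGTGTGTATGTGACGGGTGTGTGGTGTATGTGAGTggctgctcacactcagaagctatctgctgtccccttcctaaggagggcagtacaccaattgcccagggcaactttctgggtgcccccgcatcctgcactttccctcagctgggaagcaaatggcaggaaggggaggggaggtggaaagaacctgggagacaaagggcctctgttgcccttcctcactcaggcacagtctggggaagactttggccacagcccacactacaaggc

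The first window (chr11:121480612-121480911, minus strand) belongs to a long non-coding RNA gene inside SORL1, which encodes a sorting receptor of the VPS10 family. It lay wholly inside a 1450 bp double-knockout site (fold enrichment 3.90, 20 reads at the summit). Shifted against itself by 54 bases, this window matched at 95.9% of positions, more than 99.98% of the 33725 windows on chromosomes 1 to 22 at their own best shift of 2 to 100 bases. The second window (chr7:350891-351190, minus strand), also of a long non-coding RNA gene, lay wholly inside a 1246 bp double-knockout site near the end of chromosome 7. It was 45.3% T and 39.0% G, and its best shift of 87 bases matched at 55.4% of positions, above 99.4% of windows. The CALY window (chr10:133336847-133337146, minus strand) reached 39 bases into the third widest wild-type site. The LINC02251 window (chr15:98002788-98003087, plus strand) reached 66 bases into a 1380 bp double-knockout site.

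Runs of TG recurred in these stretches. The motif GTGTGT, searched on both strands (ACACAC on the other), was present inside the broad site in 5 of the 8 windows: those of CALY, LINC02251, ESPNL and the long non-coding RNA genes LOC124901809 and LOC105375303. It was absent from the parts inside the sites at GDF11, LOC107986001 and LOC105369535. Counted over whole windows, 5 of 8 on broad sites held it (62.5%), 21 of the 74 other windows on narrower sites (28.4%) and 4565 of all 33725 (13.5%). By list, it was in 1 of 2 windows on broad and 12 of 29 on narrower wild-type sites (41.4%). In the double knockout it was in 4 of 6 and 18 of 65 (27.7%). In these counts by list, a window on a broad site of 1 list could count with the narrower sites of the other. The median of the best shifted match was 40.7% on broad sites, 35.8% on narrower sites and 34.9% over all windows. The motif and the shift were chosen after the sequences had been seen, and 8 windows from gene starts do not stand for 680 sites.

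Promoter windows were rarely touched, by broad sites and by the whole lists alike. A broad site overlapped a promoter window in 2 of 158 wild-type cases (1.27%, 0.154% to 4.498%; all wild-type sites 0.835%) and in 6 of 522 double-knockout cases (1.15%, 0.423% to 2.48%; all double-knockout sites 0.738%). The gene's first base itself lay inside a broad site only at LOC105369535 and LOC124901809. None of the broad sites overlapped any of the 1461 miRNA hairpins in the RefSeq table.

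Broad sites were the tail of one continuous distribution of widths. Their median width was 1190 bp in wild type (quartiles 1070 and 1392, widest 3194) and 1234 bp in the double knockout (1098 and 1494, widest 3700), against 372 bp and 397 bp for the narrower sites. They made up 13.0% of the bases covered by the autosomal wild-type list (208 of 1602 kb) and 16.4% of the double-knockout list (723 of 4400 kb). The 10 widest wild-type sites below the limit (981 to 996 bp) had a median fold enrichment of 6.30 and the 10 narrowest above it (1002 to 1014 bp) 6.06. In the double knockout these medians were 5.02 (993 to 998 bp) and 6.05 (1000 to 1005 bp). The plot of widths shows no step at 1000 bp in either list.

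**Figure D1:**
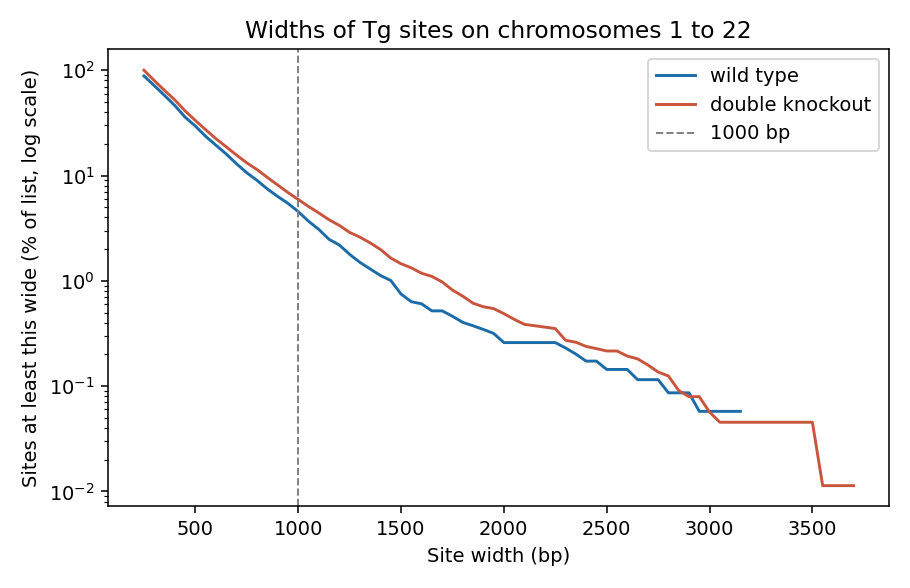
Share of sites on chromosomes 1 to 22 (vertical axis, percent of the list, log scale) that are at least as wide as the value on the horizontal axis (bp), for the wild-type and the double-knockout list; the dashed line stands at 1000 bp. Both curves fall without a step, through 4.55% and 5.93% at 1000 bp.

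Broad sites had higher median folds than narrower ones, but the highest folds of each list were at the far more numerous narrower sites. The fold enrichment, the authors' ratio of reads at the summit to the caller's background, had a median of 6.17 over the wild-type broad sites (from 3.75 to 11.7) against 5.12 over narrower ones, which reached 34.0. Double-knockout medians were 6.14 (2.59 to 12.9) and 4.90, and narrower sites reached 28.9. Reads recovered at the summit had a median of 19 for wild-type broad sites and 13 for narrower ones, and 26 and 17 in the double knockout. The background under broad sites was 3.14 times the lowest background of the wild-type list in the median, and 2.35 times under narrower sites. The double-knockout values were 2.87 and 1.96. Across members, width had a Spearman rho of 0.310 with reads in wild type (158 sites) and 0.255 in the double knockout (522 sites). All these values come from the calling that also gave the width, so they describe the members and carry no test.

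The summit was placed less centrally in broad sites. It fell in the middle one of 3 equal parts of the site at 46.8% of wild-type broad sites (38.9% to 54.9%) and at 63.8% of narrower ones. For the double knockout these shares were 45.0% (40.7% to 49.4%) and 69.3%. Summit and width come from the same calling, so these shares too describe the members and carry no test.

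Every broad wild-type site was found again in the double knockout. All 158 overlapped a double-knockout site by at least 1 bp (interval 97.7% to 100%), against 2472 of 3314 narrower sites (74.6%) and 75.7% of the whole list. A wide interval overlaps more easily than a narrow one. By the summit base alone, 154 of 158 broad summits (97.5%) and 71.5% of narrower ones lay in a double-knockout site. Strong narrower sites were nearly as often found again: of the 414 with a −log10 q at or above the broad median, 95.9% (93.5% to 97.6%) overlapped the double-knockout list and 95.4% did so by summit. Width itself recurred: 144 of the 158 (91.1%, 85.6% to 95.1%) overlapped a site that was also broad in the double knockout, where 15.9% of all wild-type sites and 12.3% of narrower ones did, and likewise 12.3% of the 414 strong ones. Of the other 14, 8 met 1 narrower site and 6 met several. Counting partners of any width, 8 of the 158 (5.06%) overlapped more than 1 double-knockout site, as did 1.01% of the whole wild-type list.

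Broad double-knockout sites were more mixed in what wild type held at the same place. Of the 522, 436 (83.5%, 80.1% to 86.6%) overlapped a wild-type site, against 25.05% of narrower sites and 28.5% of the whole list. By summit the shares were 67.2% for broad and 22.3% for narrower sites (whole list 25%). A broad wild-type site lay at 145 of them (27.8%, whole list 1.88%) and a single narrower one at 205, with a median width of 629 bp. At 86 lay several narrower wild-type sites, whose median width was 445.5 bp and which together covered 65.6% of the double-knockout site in the median. The remaining 86 had no wild-type partner. These 86 had a median width of 1156 bp, a median fold of 5.02 and 20 reads at the summit. The nearest wild-type site was 52.4 kb away in the median, and within 10 kb at 22 of them. In all, 108 broad double-knockout sites (20.7%) overlapped more than 1 wild-type site, which 1.62% of all double-knockout sites did.

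At loci broad in both lists, the double-knockout site was usually the wider one. These 145 pairs joined 144 wild-type and 145 double-knockout sites. The double-knockout site was wider in 125 pairs and the wild-type site in 20, with a median width ratio of 1.12 (quartiles 1.04 and 1.33, extremes 0.765 and 3.45). The double-knockout site began a median of 60 bp before the wild-type one and ended 52 bp after it. The pairs were chosen by width in both lists, so their widths describe the members and carry no test. Over the whole lists on these chromosomes, 33.3% of double-knockout and 29.5% of wild-type sites were at least 500 bp wide. Summits lay a median of 233 bp apart, within 100 bp in 40 pairs and more than 500 bp apart in 38. Median reads at the summit were 20 for the wild-type sites and 31 for the others. The lowest background of a list, which rises with library depth and fragment length, was 0.739 reads for wild type and 1.25 reads for the double knockout. With 1 list per genotype, wider sites from deeper libraries and wider sites from the genotype cannot be told apart.

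**Figure D2:**
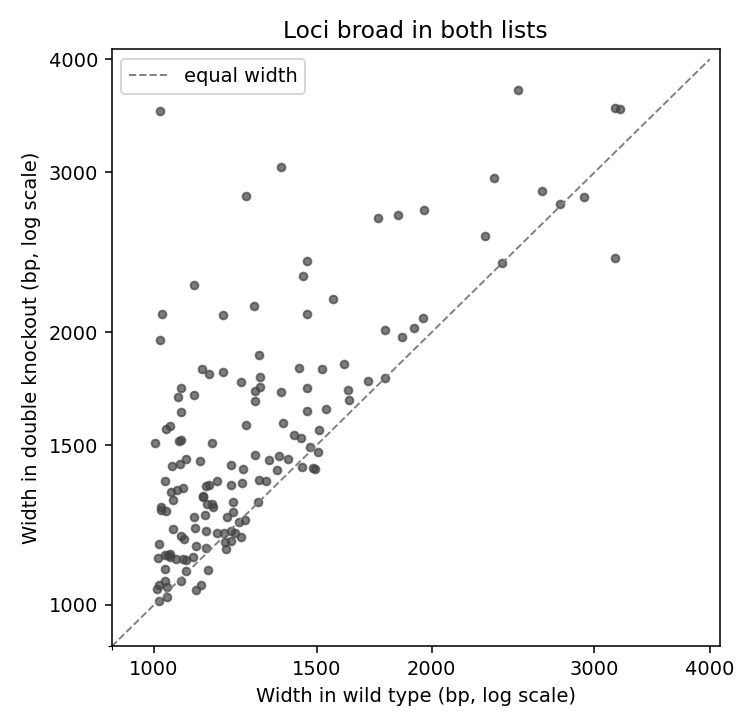
Width in the wild-type list (horizontal axis, bp, log scale) against width in the double-knockout list (vertical axis, bp, log scale); each of the 145 points is 1 pair of overlapping sites that are both at least 1000 bp wide, and the dashed line marks equal widths. Of the points, 125 lie above the line and 20 below it.

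The widest sites show both patterns. The widest of all lay in TAFA5, the gene of a small secreted protein of the nervous system (chr22:48582186-48585885, 3700 bp, fold 4.5, 25 reads in the double knockout). Wild type held 1 site of 2479 bp there (fold 6.94, 21 reads). In PPP6R2, which encodes a regulatory subunit of protein phosphatase 6, the widest wild-type site (3194 bp, fold 5.41, 23 reads) met a double-knockout site of 3529 bp (6.38, 41 reads). In SLC1A7, the gene of a glutamate transporter, 2 double-knockout sites of 3533 and 2415 bp (folds 9.63 and 10.4) faced 5 wild-type sites of 321, 949, 3158, 693 and 455 bp in the order of position. An intergenic double-knockout site of 3510 bp on chromosome 2 (chr2:239865763-239869272) lay over 3 wild-type sites of 1016, 964 and 967 bp. CAMSAP1, which encodes a protein that binds the minus ends of microtubules, had the highest fold of any broad double-knockout site (12.9, 3045 bp, 41 reads) over wild-type sites of 1374 and 758 bp. In CD5, the gene of a lymphocyte surface receptor, a 2955 bp double-knockout site (fold 11.9) lay over wild-type sites of 329 and 2337 bp. GRM4, a metabotropic glutamate receptor gene, had a double-knockout site of 2826 bp over wild-type sites of 518, 1258 and 323 bp. Of the 10 widest double-knockout sites, 7 met more than 1 wild-type site and 3 met a single one, as the map of these loci shows.

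**Figure D3:**
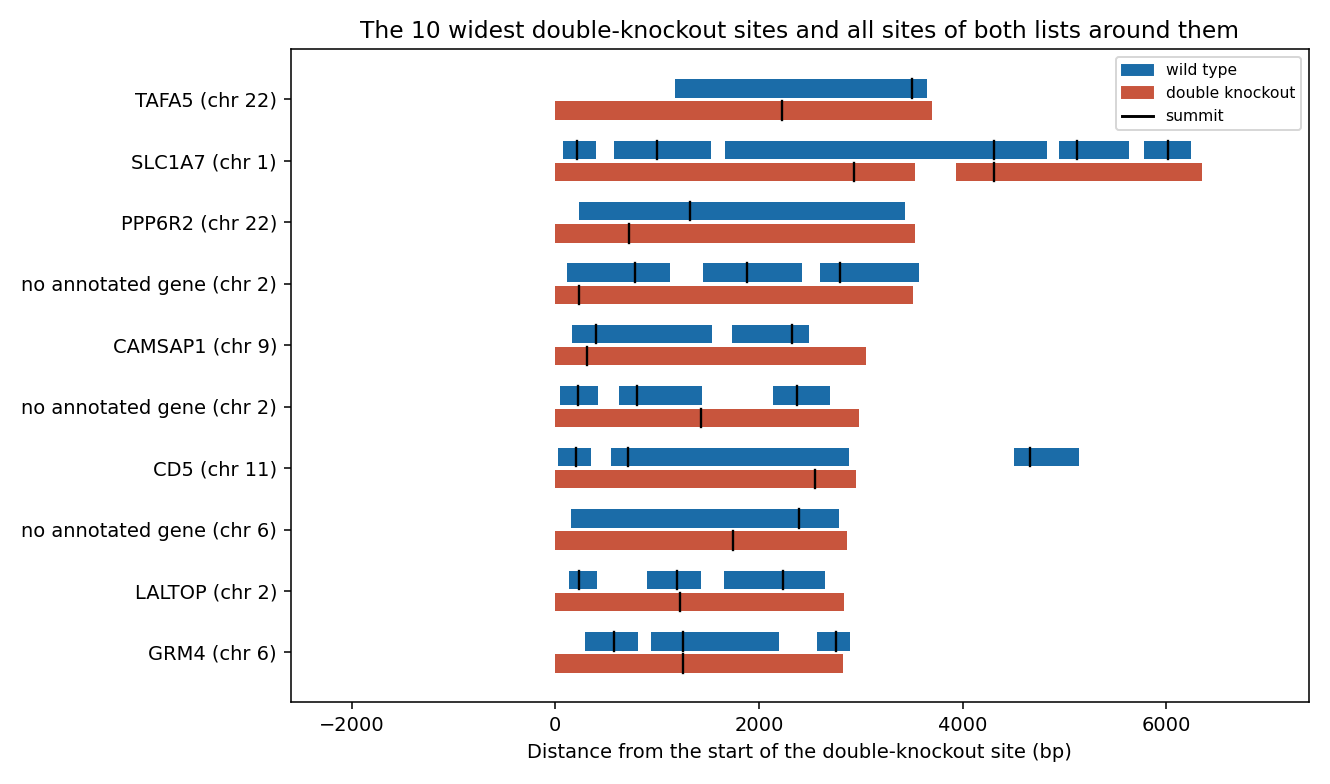
The 10 widest double-knockout sites, 1 per row with the gene or chromosome at the left, and all sites of both lists within 2500 bp of them; the horizontal axis is the distance in bp from the start of the double-knockout site, bars are sites (upper bar wild type, lower bar double knockout) and black ticks are summits. In 7 rows the double-knockout site spans more than 1 wild-type bar.

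Broad double-knockout sites lay near chromosome ends more often than narrower ones. Within 5 Mb of an end, taken as the outermost gene or site on the chromosome, lay 167 of 522 broad double-knockout sites (32.0%, 28.0% to 36.2%), 18.03% of narrower ones (17.2% to 18.9%) and 18.9% of the whole list. In wild type the shares were 51 of 158 (32.3%, 25.1% to 40.2%), 27.5% (26.0% to 29.0%) and 27.7%, with intervals that overlap. Within 1 Mb lay 34 broad double-knockout sites (6.51%, 4.55% to 8.98%; narrower 3.28%; whole list 3.47%) and 9 broad wild-type sites (5.70%, 2.64% to 10.54%; narrower 4.98%; whole list 5.01%). Seen the other way, 11.1% of double-knockout sites within 1 Mb of an end were broad, 9.82% of those at 1 to 5 Mb, 6.27% at 5 to 20 Mb and 4.21% farther in. The wild-type shares at these distances were 5.17%, 5.33%, 4.67% and 3.98%. On the 22 chromosomes, each with at least 5 broad double-knockout sites, the share near ends was higher among broad than among narrower sites on 19. In wild type this held for 9 of the 14 chromosomes with at least 5. The intervals cover counting error only, neighbouring sites are not independent, and no test of these differences was made.

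The double-knockout list was also split in 4 equal parts by q. In the part with the lowest q, 32.9% of 353 broad sites (28.0% to 38.0%) and 23.9% of 1849 narrower ones (21.98% to 25.9%) lay within 5 Mb of an end. In the next part the shares were 35.1% of 114 (26.4% to 44.6%) and 17.8% of 2075 (16.2% to 19.5%). The weaker parts held only 42 and 13 broad sites, 19.05% and 23.1% of them near ends, against 17.1% and 14.2% of narrower ones. Overlap with wild type in the part with the lowest q was 92.6% for broad and 54.7% for narrower sites. Among the 997 narrower double-knockout sites at least as strong by q as the median broad one, 64.9% overlapped wild type and 26.7% (24.0% to 29.5%) lay near ends, an interval that meets the one of all broad sites. By width class the share near ends rose from 11.7% of double-knockout sites under 300 bp to 30.8% from 700 bp up to the limit, and was 29.7% from there to below 1500 bp and 39.1% at 1500 bp or more. The wild-type classes gave 21.2%, 35.7%, 31.1% and 38.5% at the same widths.

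**Figure D4:**
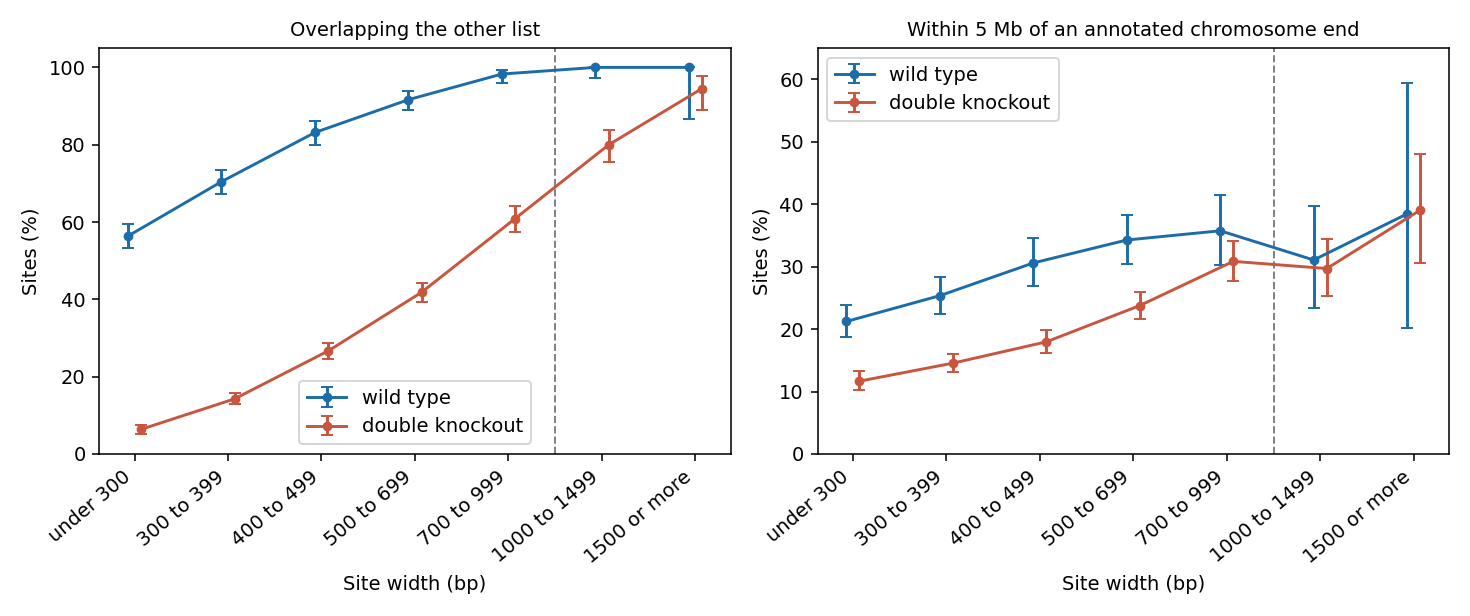
Share of sites (vertical axes, percent, with exact binomial 95% intervals) that overlap a site of the other list (left) or lie within 5 Mb of an annotated chromosome end (right), by site width (horizontal axes, bp), for each list; the dashed line separates sites of 1000 bp or more. Overlap reaches 100% in both broad wild-type classes and 94.5% in the widest double-knockout class.

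Broad sites were found on all 22 chromosomes in both lists. In the double knockout, the share of a chromosome's sites that were broad ran from 3.80% on chromosome 18 (6 of 158) to 8.84% on chromosome 7 (42 of 475, interval 6.45% to 11.8%), with a median of 5.74%. Chromosomes 12 (8.39%), 9 (8.24%), 21 (8.06%) and 2 (7.97%) followed chromosome 7, and chromosome 1, with the most sites, had 4.46% (3.33% to 5.83%). In wild type the share ran from 1.56% on chromosome 20 (2 of 128) to 9.43% on chromosome 12 (15 of 159, 5.38% to 15.1%). Per length, chromosome 19 carried 64.9 broad double-knockout sites per 100 Mb and chromosome 22 carried 45.3, the highest of the 22. In wild type these were 15.4 and 17.7. Chromosome 19 is rich in sites of any width, and its broad share was 6.25% and 3.96%, inside the range of the other chromosomes.

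**Figure D5:**
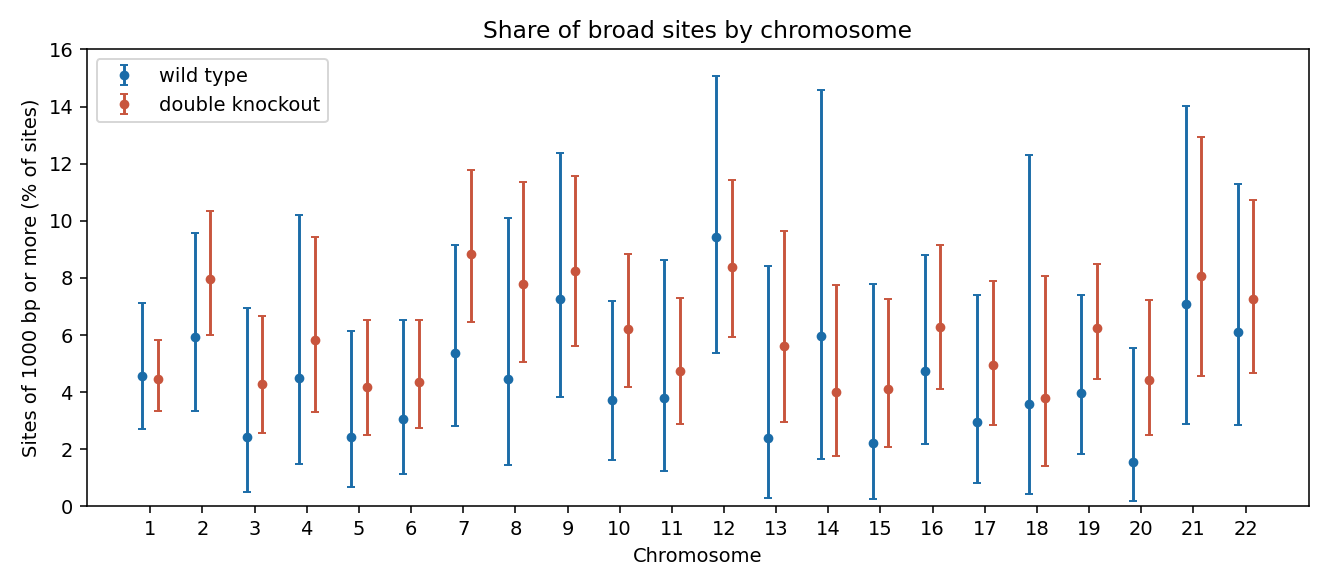
Percent of sites that are 1000 bp or wider (vertical axis) on each of chromosomes 1 to 22 (horizontal axis), with exact binomial 95% intervals, for each list. Chromosome 7 is highest in the double knockout (8.84%) and chromosome 12 in wild type (9.43%); most intervals overlap.

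A few broad sites stood on a very high background. On chromosome 16, 3 broad sites lay between 34582760 and 34589020 in wild type and 3 at the same places in the double knockout. In wild type they had 100, 90 and 220 reads at the summit with folds of only 4.79, 3.99 and 4.66, and in the double knockout 115, 112 and 240 reads with folds of 3.44, 2.69 and 3.14. Sites at 46389537 and 46398695 on the same chromosome (1488 and 2384 bp) had 400 and 185 wild-type reads on a background 125 and 59.7 times the lowest of the list. In all, 5 wild-type and 6 double-knockout broad sites exceeded 10 times the lowest background, all of them intergenic and all but 1 on chromosome 16. Such a background was not particular to broad sites. Narrower wild-type sites reached 143 times the lowest background and 405 reads. The 100 kb window from 34500001 on chromosome 16 held 14 sites in each list, of which 3 were broad. Within 2 Mb of a gene-free stretch of over 2 Mb lay 5.70% of broad wild-type sites (whole list 3.95%) and 3.45% of broad double-knockout sites (whole list 3.03%).

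Broad sites lay in or at protein-coding genes about as often as narrower ones. By midpoint, 51.9% of broad wild-type sites (43.8% to 59.9%) and 47.5% of narrower ones lay in a protein-coding gene or within 1 kb of its ends, against 47.7% of the whole list. In the double knockout the shares were 48.3% (43.9% to 52.7%) and 49.6% (whole list 49.5%). Gene edges alone held 1 of 158 broad wild-type sites (0.633%, 0.0160% to 3.48%; narrower 3.20%) and 10 of 522 in the double knockout (1.92%, 0.922% to 3.49%; narrower 3.52%). The wild-type interval includes the narrower share, the double-knockout one ends just below it, and the difference was not tested. Other genes held 9.49% of broad wild-type sites (narrower 11.9%) and 9.96% of broad double-knockout sites, and 38.6% and 41.8% were intergenic. These 2 classes hold all sites outside the protein-coding share, which was near that of narrower sites. The median number of protein-coding genes within 500 kb was 7 for broad and 8 for narrower wild-type sites, and 8 for each class in the double knockout. Genes overlapped by broad sites had median lengths of 114 kb (wild type) and 118 kb (double knockout), counted once per site and gene, against 112 and 122 kb for narrower sites.

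Broad double-knockout sites had near neighbours somewhat more often than narrower ones, while the wild-type interval included the narrower share. Another site of the same list lay within 10 kb of 28.5% of broad wild-type sites (21.6% to 36.2%; narrower 23.6%; whole list 23.8%) and of 33.7% in the double knockout (29.7% to 38.0%; narrower 23.3%; whole list 24%).

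Protein-coding genes touched by broad sites numbered 73 for the wild-type list and 211 for the other, of 19126 on these chromosomes. The lists shared 66 of them, 90.4% of the wild-type and 31.3% of the double-knockout genes, and at each of the 66 a pair of overlapping broad sites lay in the gene. For sites of any width the shared genes were 86.9% and 36.9%. More than 1 broad site lay in 8 genes of the wild-type list and 30 of the double-knockout list.

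Among genes of secretion, the cell surface and the extracellular matrix, some held several broad sites. PTPRN2 (chromosome 7, 1049 kb) makes a protein of dense-core vesicles related to tyrosine phosphatases. It held 6 broad sites among 29 in the double knockout, 1139 to 2613 bp wide with folds of 5.23 to 10.9, and 2 among 24 in wild type (1301 and 1071 bp). GALNT9, the gene of an enzyme that starts O-linked glycans on proteins (chromosome 12), held 4 among 9 in the double knockout (1020, 1724, 1643 and 1331 bp) and 1 among 7 in wild type (1287 bp). Its 4 broad sites began in 1 window of 100 kb (132200001 to 132300000), the largest number in any such window. The last of them ran past the window's end, to 132300783. COL22A1, a collagen chain gene, held 3 of 5 in the double knockout (1028 to 1816 bp) and none of 6 in wild type, whose widest there was 877 bp. CDH4, the gene of R-cadherin, held 2 of 20 in the double knockout (2285 and 1444 bp) and none of 15 in wild type. In MUC3A, a mucin gene whose product has a long tandem-repeat domain, 2 of 6 double-knockout sites were broad (2586 and 2731 bp). The wild-type list had 5 sites of 243 to 624 bp in MUC3A. MAG, a myelin adhesion protein gene, had 1 broad site in each list, 2397 bp in the double knockout and 1465 bp in wild type.

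Solute carrier genes and a potassium channel partner gene were also named. DPP6, which encodes a partner subunit of potassium channels (chromosome 7, 1146 kb), held 2 broad sites in each list at the same places. They were 1797 and 2011 bp wide in the double knockout and 1147 and 1778 bp in wild type. SLC25A26, the gene of a mitochondrial carrier for S-adenosylmethionine, held 3 broad double-knockout sites between 66183601 and 66199827 on chromosome 3 (1327, 1489 and 1412 bp, folds 4.06, 3.46 and 6.69), where wild type had only sites of 378 and 768 bp. SLC35F3, of a family of solute carriers, held 2 in each list (1181 and 1449 bp in the double knockout, 1077 and 1084 bp in wild type). The gene of the membrane protein TMEM132C held 2 in the double knockout (1041 and 1618 bp) and 1 in wild type (1008 bp).

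Genes of transcription and RNA control were also among those with overlapping broad sites in both lists. HDAC4, a histone deacetylase gene on chromosome 2, held 2 in each list (1824 and 1561 bp in the double knockout, 1435 and 1511 bp in wild type). CAMTA1, a calmodulin-binding transcription activator gene, held 3 of 14 in the double knockout (1039, 1111 and 1365 bp) and 2 of 8 in wild type (1111 and 1101 bp). Among these, only the 1039 bp double-knockout site and the 1111 bp wild-type site overlapped each other. GLIS1, a zinc finger factor gene, held 2 in each list (double knockout 1586 and 1697 bp, wild type 1379 and 1061 bp). CASZ1, a zinc finger factor gene, held 2 in the double knockout (1408 and 1114 bp) and 1 in wild type (1360 bp). In SPI1, the gene of the blood-cell factor PU.1, the single broad site was nearly identical in the lists, 1780 bp from 47355782 in the double knockout and 1778 bp from 47355822 in wild type. MLXIP, a glucose-responsive factor gene, had sites of 2304 bp in the double knockout and 1451 bp in wild type. RBFOX1, a splicing factor gene, had 2 of 14 sites broad in the double knockout, the wider 1508 bp, and 1 of 5 in wild type (1155 bp).

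Signalling and trafficking genes completed the named set. TBC1D22A, of the family of Rab GTPase activators (chromosome 22), held 2 broad sites in each list with little difference in width, 2767 and 1200 bp in the double knockout against 2751 and 1223 bp in wild type. KSR2, a scaffold of the Ras pathway, held 2 in each list (double knockout 1157 and 1959 bp, wild type 1138 and 1014 bp). RAB37, a small GTPase gene, held 2 in the double knockout (1364 and 1160 bp) and 1 in wild type (1245 bp). RILPL1, a lysosomal and ciliary trafficking gene, had 1 in each list (double knockout 2696 bp, wild type 1839 bp), and so had TOGARAM2, of a family of microtubule-binding proteins (1974 and 1857 bp in the same order). The read-through gene ZNF511-PRAP1, which overlaps CALY on chromosome 10, had 2819 and 2926 bp, the second being the wild-type site shown with CALY.

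Broad sites were also counted in gene lists chosen by function. Base excision repair genes, NTHL1 among them, held 6 wild-type and 11 double-knockout sites, none of which was broad. Of 28 long genes at common fragile sites, 4 held a broad double-knockout site (PTPRN2, RBFOX1, CTNND2 and AUTS2; 11 of 103 sites, 10.7%) and 2 a wild-type one (3 of 48, 6.25%). PTPRN2 alone held 6 of these 11 broad double-knockout sites and 2 of the 3 wild-type ones. It also held 29 of the 103 and 24 of the 48 sites, so these shares rest largely on 1 gene. Over all protein-coding genes, 5.77% of double-knockout and 5.04% of wild-type sites were broad. Mucin genes had 4 broad among 24 double-knockout sites (16.7%), 2 in MUC3A and 2 in MUC5AC, and none among 10 in wild type. Collagen chain genes had 4 of 43 in the double knockout (9.30%, COL22A1 and COL5A1) and none of 24 in wild type. In the same order of lists, potassium channel genes had 1 of 46 and 1 of 20, each in KCNMA1, zinc finger genes 5 of 97 and 2 of 32, and imprinted genes none of 6 and none of 3. HOX genes held 1 double-knockout site, a narrower one. Clustered protocadherin genes, replication-dependent histone genes, tRNA genes and rRNA genes held no site of any width in either list on chromosomes 1 to 22. No test sets these lists apart from other genes.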

How the data were processed

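Tg sites were mapped by DPC-Seq in wild-type and double-knockout HEK293T cells, 2 labelled libraries and 1 input library each. Each deposited list shares its genotype word with the titles of 2 libraries. The submitters' processing notes name hg38, with MACS2, Bowtie2, deepTools and bedtools. Versions, roles, settings, the control and the way libraries were combined are not stated there, and values per library were not analysed here. The deposited columns are a score, a fold enrichment over background, and −log10 p and −log10 q per site. In all rows the score is the −log10 q times 10 without its decimals.

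Reads and background at each summit were solved from the fold, read as (reads + 1)/(background + 1), and a Poisson p. A whole number of reads matched the deposited p at 100% of sites (−log10 p within 0.001). Total reads per library are unknown. Reads ranged from 6 to 405 per summit in wild type and from 6 to 452 in the double knockout.

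Widths, overlaps (at least 1 bp) and positions were computed in Python 3.11.15 with pandas 2.3.3 and SciPy 1.17.1. Genes, promoter windows and miRNAs came from RefSeq tables of GRCh38.p14. Shares have exact (Clopper-Pearson) 95% intervals, which cover counting error only. The overlap, read recovery and repeat steps were tested on simulated data. With 1 list per genotype no comparison has replicates and no p-value is given. Named genes overlap broad sites in both lists at 1 place, or more than 1 broad site of a list, taken up to 30 by summed width, or lie at the 10 widest sites of a list. 1 of them is not reported here. The members, gene lists and measures were chosen with earlier results of these data known. Other widths, thresholds, overlap and position rules were tried.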

Additional observations from a re-analysis of the deposited data

Results flagged for a closer look

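Sites of 1000 bp or more also lay off chromosomes 1 to 22, in data that the comparisons above do not use. There were 9 among 216 such wild-type sites (4.17%, exact interval 1.92% to 7.76%) and 23 among 563 double-knockout sites (4.09%, 2.61% to 6.07%). Chromosome X held 5 wild-type and 14 double-knockout ones. The mitochondrial genome held 3 wild-type sites of 1009 to 2996 bp and 1 double-knockout site of 5079 bp, wider than any site on chromosomes 1 to 22. Contigs not placed on a main chromosome held 1 and 8.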

How the results depend on the processing

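With the limit at 800 bp the lists held 312 and 1003 broad sites (wild type, then double knockout), and at 1500 bp 26 and 128. By summit base, 97.5% and 67.2% of broad sites overlapped the other list. For the double knockout this overlap was 74.5% at 800 bp and 94.5% at 1500 bp. It was 61.1% with both lists held to a −log10 q of at least 5, and likewise 61.1% with 50% of the site covered. It was 92.6% in the 25% of the list with the lowest q, an alternative chosen after seeing the data. The share overlapping a broad site of the other list was 96.2% and 20.3% at 1500 bp, and 83.3% and 32.9% in the widest 5% of each list (at least 966 and 1056 bp). Of the double-knockout sites, 56.3% lay in or at a protein-coding gene at 1500 bp, above the 49.4% of narrower sites, where the 1000 bp limit had it below. The part with the lowest q also had it above (49.3% against 49.0%). The share near ends was 39.1% at 1500 bp. With end regions of 1 Mb it was 5.70% and 6.51%. Within 100 kb the median number of protein-coding genes was 1 in each list. The background ratio of the double-knockout list was 3.02 at 1500 bp. The other alternatives moved values less than their counting intervals or, for counts, by less than 1.5 times. Broad sites kept the higher share over narrower ones, for overlap and for nearness to ends, under each alternative run in both lists. No paired analysis was possible because each genotype has 1 list with no values per library, and leaving out a replicate was not run for the same reason. Sites rest on few reads, 10 at the weakest broad summit, and total depth is unknown.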
